A study of Mus musculus with 14 samples.

Results

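The YAP and TEAD pathway genes described here are 8 of the 28929 gene symbols in the deposited counts. They are the coactivator genes *Yap1* and *Wwtr1*, the gene of their DNA-binding partner *Tead1*, the kinase gene *Lats2*, the adaptor gene *Amotl2* and the target genes *Ccn1*, *Ccn2* and *Ankrd1*. The members were selected on the UMI counts reported here, summed per cell type label and library and compared between control and CKO nuclei, so that this contrast is given for them as a description, without a test. All 8 have UMIs in both matrices, which hold 28316 symbols for the retina and 26528 for the brain.

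YAP and TAZ, the latter encoded by *Wwtr1*, are transcriptional coactivators that bind no DNA themselves and reach their targets through TEAD factors. Kinases of the Hippo cascade, with LATS1 and LATS2 at its end, phosphorylate both coactivators and keep them out of the nucleus, and angiomotin proteins such as AMOTL2 hold them at cell junctions. In the retina YAP is best known from Müller glia, the radial glia that span all layers, where it takes part in the response to injury, and in ECs (endothelial cells) both coactivators take part in vessel growth.

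Single nuclei of whole retinas and of vascular fragments from the brain were captured with PIPseq and sequenced, and each transcript was counted once by its unique molecular identifier (UMI). The retina data hold 1 library from control mice, labelled wild type, and 11 from *Cdh5CreER;Tgfbr1 CKO/-* mice, labelled Tgfbr1-CKO and called CKO here. The brain data hold 1 library of each genotype. The comparison asks what nuclei of the retina and of brain vessels express when ECs lose the TGF-beta receptor TGFBR1.

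Cre is driven by the *Cdh5* promoter and so acts in ECs, after 4-hydroxytamoxifen given between postnatal days 3 and 5, and every CKO mouse carried 1 null and 1 conditional allele of *Tgfbr1*, so that all of its cells lacked 1 copy. The paper describes its controls as phenotypically wild type and typically *Cdh5CreER;Tgfbr1 CKO/+*, but the genotype of the sequenced controls, their treatment and the strain are not given in the labels. Sources differ on age, with postnatal day 14 in one and young adult in the labels. Each brain library pooled 2 brains. The retina data have no label for ECs, so that the cells in which Cre acts are seen only in the brain.

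Retina libraries held 30989702 UMIs in 11513 control nuclei and between 90449 UMIs in 104 nuclei (CKO replicate 4) and 55803724 UMIs in 18862 nuclei (CKO replicate 5). The brain libraries held 49798325 UMIs in 16649 control nuclei and 31033373 UMIs in 14675 CKO nuclei. Of 77666 distinct barcode sequences in the retina 10 occurred in more than 1 library, and of 31322 in the brain 2 did. Levels below are given as CPM, the UMIs of a gene scaled to the UMIs of all genes in the nuclei of a label in a library. The 95% intervals reflect error of counting alone.

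The metadata place the control and CKO replicates 1 to 3 in batch 1, replicates 4 and 5 in batch 2 and replicates 6 to 11 in batch 3, and CKO replicates 8 to 11 were made with kit version 5, the others with version 4. Batch 1 is the only one with a control. The set of counted genes differed between batches: 322 genes had 0 UMIs in the 5 libraries of batches 1 and 2 (CKO replicate 4 left out) and at least 5 CPM in each of the 6 libraries of batch 3, and 166 genes showed the opposite. None of the 8 members is among either set. *Xist* was at 6779 CPM in the control retina library, between 5577 and 6823 CPM in CKO replicates 1, 2, 4 and 7, and between 0.365 and 12.9 CPM in the other 7. In the brain it was at 1963 CPM in the control library, which also held 189 CPM of the Y chromosome genes *Uty*, *Ddx3y*, *Kdm5d* and *Eif2s3y*, and at 1.29 CPM in the CKO library, with 421 CPM of those 4 genes.

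*Tgfbr1*, the targeted gene, was at 89.0 CPM over all control retina nuclei and between 71.4 and 87.0 CPM in the CKO libraries other than replicate 4, whose 33 UMIs gave 365 CPM. In brain ECs it was at 69.1 CPM for the control and 62.9 CPM for the CKO, while *Tgfbr2* went from 396 to 742 CPM. Tags that fall outside the deleted stretch are still counted, so these levels do not check the deletion.

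In Müller glia, libraries with under 100 nuclei of the label were left out, which removed CKO replicate 4 with its 2 nuclei. The control then rested on 402 nuclei and 1511111 UMIs, and the 10 CKO libraries on 121 to 690 nuclei and on 465916 to 3106418 UMIs. The median was 3171.5 UMIs per control nucleus and between 1824 and 8948 in the CKO libraries. All 10 Müller glia markers on the list had UMIs in each of the 11 libraries, with a summed level of 4657 CPM in the control and 3911 to 5273 CPM in the CKO libraries.

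The coactivator gene *Yap1* was at 54.3 CPM in control Müller glia (82 UMIs) and at 27.9, 62.5 and 89.0 CPM in the lowest, median and highest CKO library. The groups overlapped, with 6 of 10 CKO libraries above the control. The lowest library, CKO replicate 2, rested on 13 UMIs. The ratio of the mean CKO level to the control was 1.10, or 0.14 on the log2 scale, and in batch 1, where the 3 CKO libraries had 27.9, 45.8 and 54.8 CPM, the log2 ratio was -0.34.

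*Wwtr1*, which encodes TAZ, was at 185 CPM in control Müller glia (279 UMIs) and at 163, 269 and 335 CPM in the lowest, median and highest CKO library. CKO replicate 7 lay below the control and the other 9 above it. The ratio of means was 1.40 (log2 0.49), and the 3 CKO libraries of batch 1 had 231, 240 and 335 CPM, all above the control.

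*Tead1*, whose product carries both coactivators to DNA, was at 244 CPM in the control (369 UMIs) and at 205, 295 and 358 CPM in the lowest, median and highest CKO library, a ratio of 1.19 (log2 0.25). CKO replicate 7 was again the only one below the control. In batch 1 the CKO libraries had 245, 262 and 294 CPM, of which the lowest was within 1 CPM of the control.

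*Lats2*, the kinase gene and itself a known YAP target, was at 39.0 CPM in the control (59 UMIs) and at 25.9, 44.7 and 53.4 CPM in the lowest, median and highest CKO library. The groups overlapped, with 6 of 10 CKO libraries above the control and 1 of 3 in batch 1. The log2 ratio of means was 0.08 with CPM and -0.01 with TMM-scaled library sizes, so that its sign depended on the scaling. The UMIs of an overlapping gene differed between batches: *Gm49361*, annotated on the same strand over 56601 of the 68886 bases of *Lats2*, had 0 UMIs in batches 1 and 2 and 3398 in batch 3, at 25.3 to 37.1 CPM over all nuclei. With both genes summed, Müller glia had 39.0 CPM in the control and 25.9, 68.2 and 92.6 CPM in the lowest, median and highest CKO library, with 8 of 10 above the control.

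*Amotl2* encodes an angiomotin family protein that binds YAP and is also a target of it. It was at 14.6 CPM in control Müller glia (22 UMIs, interval 9.12 to 22.0) and at 15.4, 23.2 and 31.8 CPM in the lowest, median and highest CKO library. All 10 CKO libraries lay above the control, although 4 of them, replicates 5, 6, 7 and 11 at 21.9, 18.5, 15.4 and 19.3 CPM, were within the control's interval. The ratio of means was 1.65 (log2 0.72), the ratio of pooled UMIs was 1.62 (interval 1.05 to 2.63), and the CKO libraries of batch 1 had 23.6, 27.9 and 27.9 CPM.

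*Ccn1*, formerly *Cyr61*, encodes a secreted matrix-associated protein and is among the targets most often used as a readout of YAP and TEAD activity. Control Müller glia held 3 UMIs, or 1.99 CPM (interval 0.409 to 5.80), and the CKO libraries had 15.0, 19.1 and 21.2 CPM at the lowest, the median and the highest, from 240 UMIs in all. Every CKO library lay above the control. The CKO libraries spanned a narrow range from 15.0 to 21.2 CPM, and batch 1 alone had 15.0, 15.9 and 20.5 CPM. The ratio of pooled UMIs was 9.43 with an interval of 3.19 to 46.1, whose width came from the 3 control UMIs, and the log2 ratio of means was 3.22.

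*Ccn2*, formerly *Ctgf*, encodes the connective tissue growth factor, a relative of CCN1 that is a target of TGF-beta signalling as well as of YAP. It was at 4.63 CPM in control Müller glia (7 UMIs, interval 1.86 to 9.54) and at 4.75, 16.2 and 20.4 CPM in the lowest, median and highest CKO library. All 10 lay above the control, but CKO replicate 7, with 4 UMIs, did so by less than counting error, and CKO replicate 2 at 8.59 CPM was within the control's interval. The ratio of pooled UMIs was 3.39 (interval 1.61 to 8.53) and the log2 ratio of means 1.67, and the 3 CKO libraries of batch 1 had 8.59, 12.2 and 19.9 CPM. Over the 3 CKO libraries with high *Xist*, like the control, the log2 ratio of means was 0.88.

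*Ankrd1*, the last target, encodes an ankyrin repeat protein best known from stretched muscle. It had no UMI in control Müller glia, with an exact interval from 0 to 2.44 CPM, and 1 UMI in CKO libraries, in replicate 5. The whole retina matrix held 7 UMIs of it, so no difference was detectable at this depth.

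**Figure D1:**
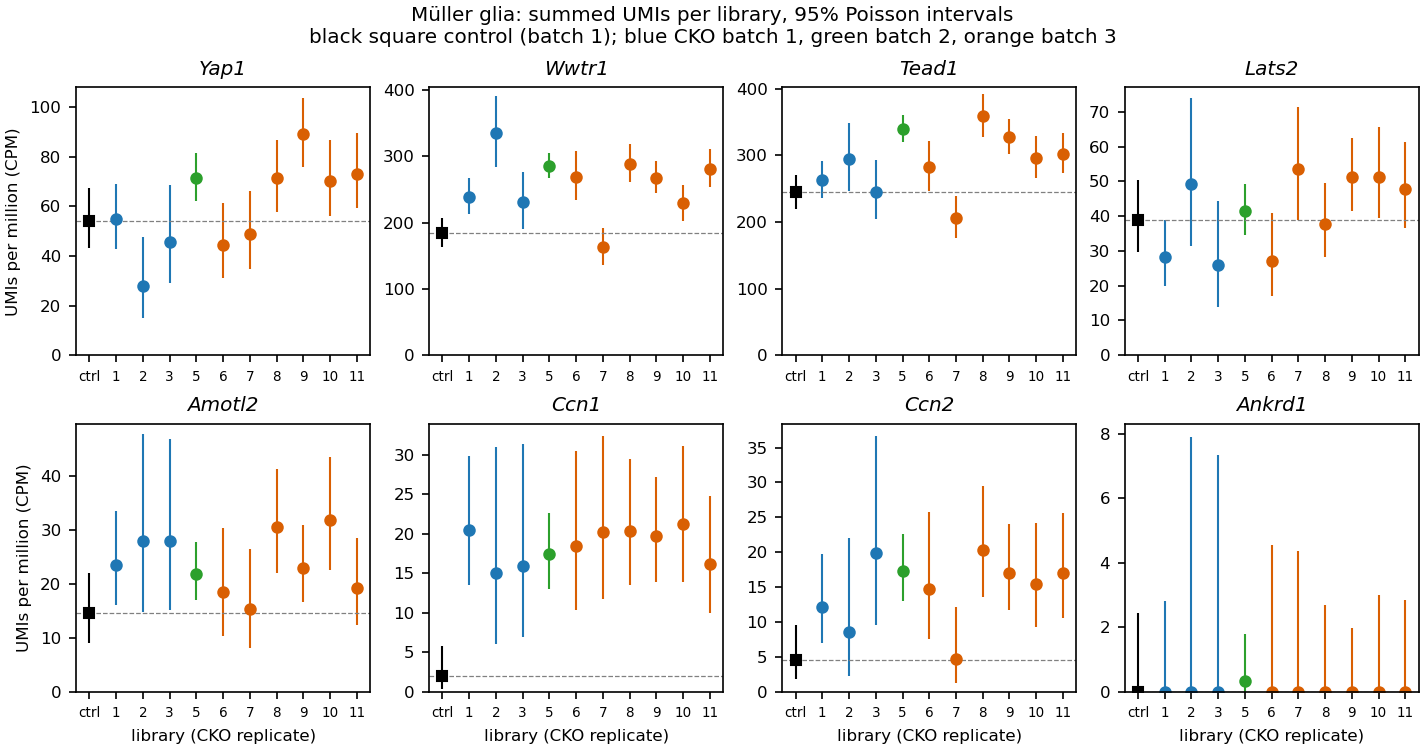
Level of each member in Müller glia (CPM, own vertical scale per gene) in the control library (black square) and 10 CKO libraries (blue batch 1, green batch 2, orange batch 3), with 95% Poisson intervals and the control's level as a dashed line. *Ccn1*, *Ccn2* and *Amotl2* lie above the control in 10 of 10 CKO libraries, and CKO replicate 7 is the lowest for *Ccn2*, *Amotl2*, *Wwtr1* and *Tead1*.

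Shares of nuclei with a UMI depend on depth, and the highest shares of *Ccn1* and *Ccn2* were both in CKO replicate 9, with the highest median depth of 8948 UMIs beside 3171.5 in the control. *Ccn1* was seen in 3 of 402 control Müller glia nuclei (0.746%, exact binomial interval 0.154 to 2.17%), and in 2.89, 6.51 and 13.0% at the lowest, the median and the highest CKO library. In rods the share was 1 of 6621 control nuclei (0.0151%) and 0 to 0.102% in the CKO libraries, at median depths of 961 UMIs in the control and 713 to 2281 in the CKO libraries. *Ccn2* was seen in 1.74% of control Müller glia nuclei (interval 0.703 to 3.55%) and in 1.04, 4.73 and 15.5% at the lowest, the median and the highest CKO library. Of control rods 0 of 6621 had a UMI of it (interval 0 to 0.0557%). In Müller glia the CKO shares for *Ccn2* overlapped the control, in CKO replicate 7. *Amotl2* was seen in 4.98% of control Müller glia nuclei (interval 3.07 to 7.58%) and in 4.41, 8.41 and 19.9% at the lowest, the median and the highest CKO library, with replicates 6 and 7 below the control, beside 1.53% of control rods. Of all *Ccn1* UMIs in the retina 60.8% were in Müller glia, 21% in the few astrocytes and 3.25% in rods.

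Over all genes, 7 of the 8 members passed the filter on low counts in Müller glia, and *Ankrd1* did not. The control lay below every CKO library for 3 of these 7, *Ccn1*, *Ccn2* and *Amotl2*, beside 1192 of all 12992 genes tested (9.17%). It lay above every CKO library for 0 of 7, beside 675 genes (5.2%). With TMM-scaled library sizes the same 3 and 0 members were found, but 935 genes (7.2%) were below and 994 (7.65%) above, so that which of these counts was larger depended on the scaling. Within batch 1, with 3 CKO libraries, the control lay below all of them for 5 of 7 members, with *Wwtr1* and *Tead1* in addition, beside 3361 genes (25.9%), and above all of them for 0 of 7, beside 2409 genes (18.5%). Without CKO replicate 7 the count below was also 5. Since the members were chosen on this contrast, nothing is read from these shares.

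The edgeR test across all genes, with kit version as a covariate, called 0 genes higher in CKO Müller glia (0%) and 1 lower (0.0077%) at an adjusted p of 0.05, with 782 genes at an unadjusted p under 0.05, and DESeq2 called 107, of which 94 were higher and 13 lower. The gene called by edgeR, *Gm17167*, outside the pathway and named after its values were seen, was at 262 CPM in the control and 28.5 to 51.5 CPM in the CKO libraries, lower in 10 of 10, with a log2 fold change of -2.80 and an adjusted p of 6.63e-05. Without CKO replicate 7 edgeR called 6 genes. With 1 control against 10 CKO libraries an exact permutation of a single value can reach no p below 0.0909.

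The rest of the pathway was followed in fixed lists that leave the members out. Both edgeR and DESeq2 called 0 genes of every list in Müller glia, and the median log2 fold change of all 12992 genes was 0.03, with 6943 of them above 0. The Hippo kinase list, which holds the kinases, their scaffolds and the junctional regulators, had all 22 genes tested, a median of -0.02, 9 genes above 0 and 2 at an unadjusted p under 0.05 in edgeR. Its genes with the most UMIs were the upstream kinase genes *Map4k4*, at 361 CPM in the control and 359 to 556 in the CKO libraries, and *Taok3*, at 205 and 193 to 337 CPM, and both overlapped between the groups, with 9 of 10 CKO libraries above the control. Summed over the list, with *Lats2* and *Amotl2* included, the level was 1724 CPM in the control. It was 1744 to 2218 CPM in the CKO libraries, above the control in 10 of 10, while the median was -0.02. Since these 2 members were chosen on this contrast and no sum without them is given, nothing is read from the position of the sum.

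Of the 6 other coactivator and TEAD genes 3 were tested, with a median of 0.07 and none at an unadjusted p under 0.05. *Vgll4*, which encodes a competitor of YAP for TEAD factors, was at 72.8 CPM in the control and 53.8 to 119 CPM in the CKO libraries. *Tead2*, a second TEAD gene, was at 29.8 CPM and 13.9 to 35.7 CPM. Both overlapped, with 9 and 5 of 10 CKO libraries above the control. The single CCN family gene tested of 4, *Ccn4*, was at 15.2 CPM in the control and 14.9 to 25.8 CPM in the CKO libraries, with 8 of 10 above the control.

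The list of YAP and TAZ targets had 15 of its 17 other genes tested, a median of 0.23 and 11 genes above 0. The largest log2 fold changes of this list were of both signs. *Fjx1* was at -1.57, with 12 control UMIs and 10 of 10 CKO libraries below the control. *Ptpn14*, which is also on the Hippo list, was at 1.13, and *Nuak2*, with 4 control UMIs, at 1.02. Both were above the control in 10 of 10. The genes of this list with the most UMIs lay on opposite sides of the control in most CKO libraries, and both overlapped between the groups. *Tgfb2*, a TGF-beta ligand gene, was at 576 CPM in the control and 506 to 939 CPM in the CKO libraries, with 8 of 10 above, and *Crim1*, which encodes a membrane protein that binds BMP ligands, was at 555 and 343 to 688 CPM, with 9 of 10 below.

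3 further lists cover programs with which *Ccn1* and *Ccn2* are shared. Immediate early genes had 13 of 21 tested, a median of 1.15, 12 above 0 and 3 at an unadjusted p under 0.05 in edgeR (2 in DESeq2). Summed over the list, they were at 159 CPM in control Müller glia and 143, 278 and 424 CPM in the lowest, median and highest CKO library, with 9 of 10 above the control. The largest log2 fold changes were 4.88 for *Fos*, 3.16 for *Nr4a1* and 2.29 for *Fosl2*. Each lay above the control in 10 of 10 CKO libraries, but control Müller glia held only 1, 4 and 2 UMIs of them. *Fos* was at 0.662 CPM in the control and 2.37 to 39.0 CPM in the CKO libraries. *Jund*, at -0.12, was the only gene below 0. The genes with the most UMIs were *Btg2*, an antiproliferative gene, and *Ier3*, a stress response gene. *Btg2* was at 64.2 CPM in the control and 41.6 to 136 in the CKO libraries, and *Ier3* at 23.2 and 22.2 to 70.5 CPM. The part of immediate early genes in the level of *Ccn1* was not tested.

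Targets of SRF and its actin-regulated coactivators had 7 of 11 genes tested, a median of 0.30 and 7 above 0, with none at an unadjusted p under 0.05. The most abundant were *Vcl*, which encodes the adhesion protein vinculin, at 121 CPM in the control and 104 to 197 in the CKO libraries, and *Actb*, at 63.5 and 35.6 to 122 CPM. Targets of TGF-beta and SMAD signalling had 7 of 9 tested, a median of 0.41 and 5 above 0, again with none under 0.05, but their most abundant genes were lower in 8 of 10 CKO libraries: the feedback inhibitor gene *Pmepa1* was at 249 CPM in the control and 131 to 263 in the CKO libraries, and *Ldlrad4*, a second such gene, was at 177 and 118 to 190 CPM. The median and the summed level of this list differed in direction, since its sum was 571 CPM in the control and had a median of 556 CPM over the CKO libraries.

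Markers of other cell types were read in the same Müller glia nuclei. The sum of the 6 fibroblast markers was 3.31 CPM in the control and 10.0, 14.1 and 30.6 CPM in the lowest, median and highest CKO library, above the control in 10 of 10. *Dcn*, *Lum*, *Col1a1* and *Pdgfra* were at 0 in the control, and *Lum* was at 0 in every CKO library too. The most abundant gene was *Col1a2* at 1.99 CPM in the control and *Pdgfra* in 8 of 10 CKO libraries, at up to 20.6 CPM. The name of the list is thus no statement that RNA of fibroblasts was present. The sum of the 5 amacrine markers was 17.2 CPM in the control and 24.6 to 70.1 CPM in the CKO libraries, with *Slc6a9* the most abundant in the control. The 6 bipolar markers were at 474 CPM in the control and 474 to 722 CPM in the CKO libraries, mostly from *Prkca*. Their part in the levels of *Ccn1*, *Ccn2* and *Amotl2* was not tested.

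The other marker lists overlapped between control and CKO Müller glia. The retinal astrocyte sum is of interest because astrocytes hold the most *Ccn2*. This sum was 428 CPM in the control and 374 to 581 CPM in the CKO libraries. *Slc1a2* was the most abundant of its 6 genes, and *Pax2* and *Gja1* were at 0 in the control and in CKO replicate 7. The overlap of the sum does not show how its scarcer genes compare, which was not tested. The endothelial sum was 1290 CPM and 1088 to 1745 CPM, and the rod sum 5499 CPM and 4019 to 6409 CPM. For cones the sum was 330 CPM and 218 to 498 CPM, for horizontal cells 2.65 and 1.99 to 18.8 with 9 of 10 CKO libraries above the control, for ganglion cells 25.8 and 10.7 to 53.8, and for immune cells 51.6 and 34.5 to 85.7. Pericyte markers were at 83.4 CPM and 64.8 to 138 CPM, smooth muscle markers at 148 and 107 to 157, oligodendrocyte markers at 16.5 and 11.9 to 28.1, brain astrocyte markers at 1774 and 1574 to 2048, and pigment epithelium markers at 9.93 and 0 to 15.9. Of RNA quality measures, the share of UMIs from *Malat1* was 8.21% in the control, 5.33 to 10.5% in the CKO libraries of the same kit and 1.76 to 1.99% with kit version 5. With kit version 4 alone, the log2 ratio of means was 3.17 for *Ccn1*, 1.48 for *Ccn2* and 0.63 for *Amotl2*.

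Across the retina, 9 of 11 labels had at least 100 nuclei in 1 or more libraries, and only such libraries are ranked here, which leaves out astrocytes and horizontal cells. *Yap1* was highest in Müller glia in 11 of 11 libraries, with a median of 54.8 CPM beside 15.8 CPM in cone bipolar, 12.8 in rod bipolar, 8.49 in glycinergic amacrine and 7.21 in GABAergic amacrine cells, 6.92 in cones, 3.69 in ganglion cells and 3.13 in rods. The ranges of Müller glia and cone bipolar cells did not overlap, while those of neighbours further down did. *Wwtr1* had the same leader in 11 of 11 libraries, at a median of 268 CPM, but was followed by rods at 126 CPM, then immune cells at 67.7 CPM in the 1 library with enough of them, cones at 54.0 CPM, and amacrine, bipolar and ganglion cells at 20.8 to 31.1 CPM. Müller glia and rods did not overlap, nor did rods and cones.

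*Tead1* was more even. Its median was 294 CPM in Müller glia, highest in 11 of 11 libraries, then 187 CPM in glycinergic amacrine cells and 135 to 152 CPM in cones, rods, GABAergic amacrine and cone bipolar cells, whose ranges overlapped. It was lowest in ganglion cells, at 59.7 CPM, and in rod bipolar cells, at 34.0 CPM. *Lats2* was highest in cones in 7 libraries and in rods in 4, at medians of 70.5 and 62.1 CPM, beside 41.5 CPM in Müller glia and 18.4 CPM in GABAergic amacrine cells, and each neighbour in its order overlapped the next. *Amotl2* was highest in Müller glia in 10 of 11 libraries and in cones in 1, with medians of 22.9 CPM in Müller glia, 12.4 in rods and 12.3 in cones.

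Among these labels the secreted targets were the most restricted members. *Ccn1* had a median of 18.5 CPM in Müller glia, the highest of them in 11 of 11 libraries, and at most 2.15 CPM in the other labels with at least 100 nuclei. *Ccn2* had a median of 15.5 CPM in Müller glia, again highest in 11 of 11, and at most 3.43 CPM in the others. Astrocytes, below the minimum of nuclei, were higher for both, with 83.6 CPM of *Ccn1* and 793 CPM of *Ccn2* over the pooled CKO libraries, beside 18.7 and 15.7 CPM in Müller glia. In rods neither exceeded 0.842 CPM. Below Müller glia the order of labels for both genes rested on single UMIs in many libraries, and neighbours overlapped.

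**Figure D2:**
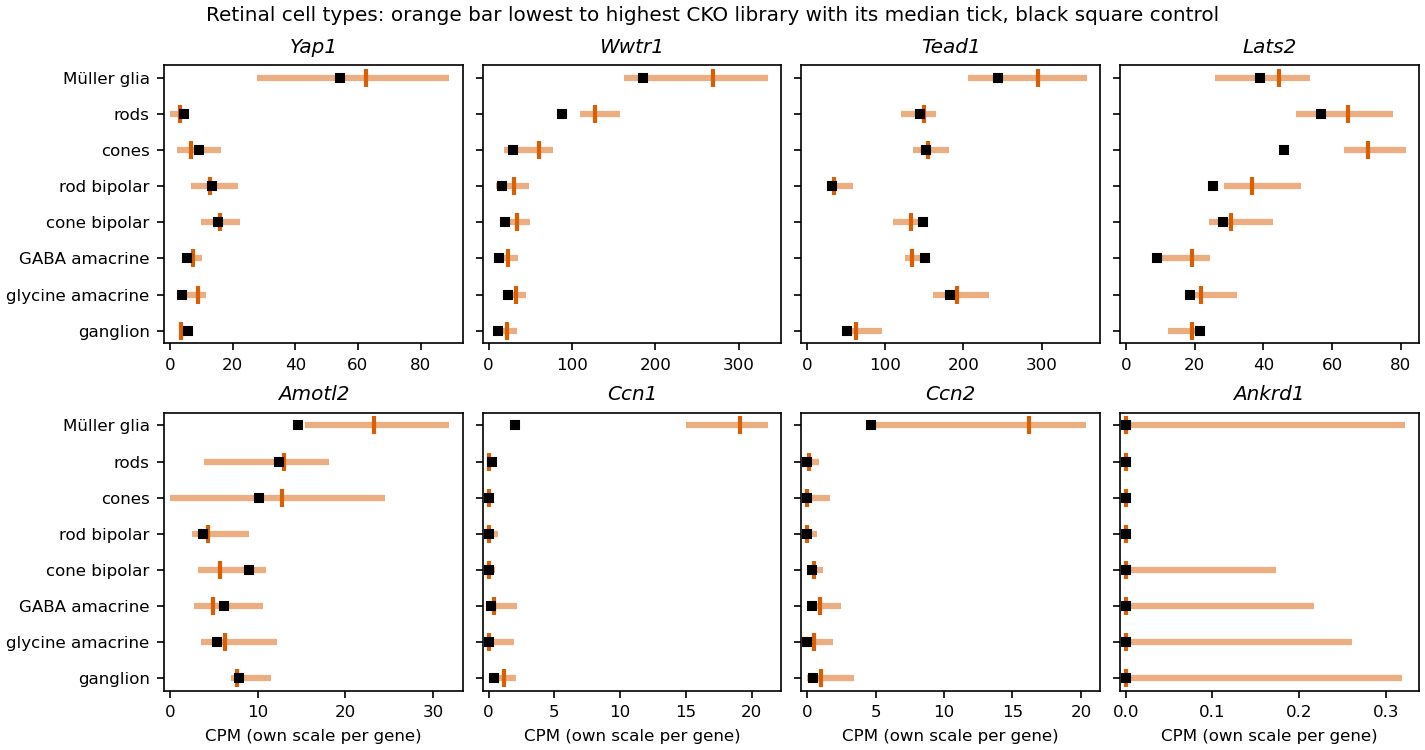
Level of each member (CPM, own horizontal scale per gene) in 8 retinal cell types of libraries with at least 100 nuclei, with the control as a black square and the lowest to the highest CKO library as an orange bar with its median. Among these 8, which do not include astrocytes, *Ccn1* and *Ccn2* are highest in Müller glia, *Lats2* in cones and rods, and *Wwtr1* in Müller glia and then rods.

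Outside Müller glia, 7 labels could be compared in libraries with at least 100 nuclei, and the control lay outside the CKO range in a few. The share of all genes in such a position is given for Müller glia alone, so nothing is read from these positions. *Wwtr1* in rods was at 87.9 CPM in the control (756 UMIs) and at 109, 127 and 157 CPM in the lowest, median and highest CKO library, above the control in 10 of 10. In cones, cone bipolar, rod bipolar and both kinds of amacrine cells 9 of 10 CKO libraries were above the control for this gene, with ratios of means between 1.43 in glycinergic and 2.01 in GABAergic amacrine cells. In ganglion cells 6 of 7 were above, with a ratio of 1.87. The direction of *Wwtr1* was thus shared by most labels of the retina, but the only control stands behind all of them.

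*Lats2* was lower in the control than in any CKO library in cones, at 46.1 against 63.5 to 81.6 CPM, in GABAergic amacrine cells, at 9.01 against 10.7 to 24.5 CPM, and in rod bipolar cells, at 25.3 against 28.7 to 51.0 CPM. No share of all genes in that position is given for these labels. The control's interval covered CKO replicates 3 and 5 in GABAergic amacrine cells (6.69 to 11.9) and replicates 2 and 3 in rod bipolar cells (19.0 to 33.1). Over all nuclei it was at 30.0 to 31.6 CPM in the 4 libraries of batch 1, which include the control, 37.5 CPM in batch 2 (CKO replicate 4, with no UMI of it, left out) and 34.9 to 46.9 CPM in batch 3. Within batch 1 the control was also below each of CKO replicates 1 to 3, at 67.3, 63.5 and 71.5 CPM in cones, 18.1, 18.0 and 11.6 CPM in GABAergic amacrine cells and 39.2, 29.9 and 28.7 CPM in rod bipolar cells. *Yap1* was lower in the control than in every CKO library in glycinergic amacrine cells, at 3.96 CPM (14 UMIs) against 4.63 to 11.5 CPM, and higher than in the 7 compared libraries in ganglion cells, at 5.77 CPM (14 UMIs) against 3.09 to 4.88 CPM. That position rests on the minimum of 100 nuclei, since CKO replicate 8, with 88 ganglion nuclei and 15 UMIs, was at 7.48 CPM. *Tead1*, *Amotl2*, *Ccn1*, *Ccn2* and *Ankrd1* lay within the CKO range in each of these 7 labels.

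3 retinal labels had too few control nuclei for the minimum and are given without it. Astrocytes, which form a layer with the vessels on the inner surface, held 69.6% of all *Ccn2* UMIs of the retina, although they had only 12 nuclei in the control and 220 in CKO libraries. *Ccn2* was at 608 CPM in control astrocytes (19 UMIs, interval 366 to 949) and at 195, 652 and 1039 CPM in the lowest, median and highest CKO library. The groups overlapped widely. *Ccn1* in astrocytes was at 32.0 CPM in the control from 1 UMI (interval 0.810 to 178) and at 83.6 CPM in the pooled CKO libraries (83 UMIs, interval 66.6 to 104), a difference within counting error.

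Horizontal cells had 70 control nuclei. *Tead1* there was at 52.1 CPM in the control (39 UMIs) and at 65.2, 95.8 and 166 CPM in the lowest, median and highest CKO library, and *Lats2* was at 9.35 CPM (7 UMIs) and at 23.3, 33.6 and 55.8 CPM. Both were above the control in 10 of 10 CKO libraries, although CKO replicate 11 was within the control's interval for *Tead1* (37.0 to 71.2). The share of all genes in that position is not given for horizontal cells, so nothing is read from it. Immune cells had 29 control nuclei and at most 10 control UMIs of any member, with pooled CKO levels of 85.8 CPM for *Tead1*, 64.7 CPM for *Wwtr1* and 50.9 CPM for *Lats2*.

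In the brain, ECs gave 5801552 UMIs in 2475 control nuclei and 6851854 UMIs in 2944 CKO nuclei. All 9 endothelial markers on the list had UMIs, with a sum of 10914 CPM in the control and 9175 CPM in the CKO library and *Flt1* the most abundant, but the 8 pericyte markers summed to 7799 and 6697 CPM in the same nuclei, mostly from *Rgs5*. Of all UMIs of a member in the brain, ECs held 71.4% for *Wwtr1*, 70.1% for *Lats2*, 66.1% for *Ccn1*, 53.6% for *Amotl2*, 52.4% for *Ccn2*, 46.7% for *Yap1* and 24.4% for *Tead1*. With 1 library per genotype, no brain value has a replicate, and the ratios below carry counting intervals only.

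The order of brain labels differed between genes. In the control library *Wwtr1* was highest in ECs at 961 CPM and in pericytes at 837 CPM, whose intervals overlapped, and next in vascular smooth muscle cells at 374 CPM. *Yap1* was spread over pericytes (230 CPM, 28 UMIs), the labels CP_8 (210 CPM) and glia (184 CPM), CP_6 (160 CPM), ECs (156 CPM) and smooth muscle cells (141 CPM), with overlapping intervals between neighbours. *Tead1* led in pericytes, CP_8 and astrocytes, at 583, 563 and 548 CPM with overlapping intervals, and was at 215 CPM in ECs.

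*Lats2* was highest in pericytes, at 304 CPM (37 UMIs), and next in ECs at 162 CPM, without overlap of the intervals. *Amotl2* was highest in CP_6 at 120 CPM, then in ECs at 91.5 CPM, glia at 86.0 CPM and pericytes at 82.1 CPM (10 UMIs), whose interval covered that of CP_6. *Ccn1* was highest in smooth muscle cells at 82.1 CPM and in ECs at 48.3 CPM, without overlap, and *Ccn2* in glia at 191 CPM, ahead of smooth muscle cells at 129 CPM, pericytes at 123 CPM (15 UMIs), whose interval overlapped that of glia, and ECs at 84.1 CPM. The label glia carried 4552 CPM of the 6 fibroblast markers, with *Col1a2* at 1602 CPM the most abundant, and 2059 CPM of the 6 astrocyte markers in the control. In oligodendrocytes no *Ccn1* or *Ccn2* UMI was seen in either library.

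In ECs, where Cre acts, the coactivator gene *Yap1* was at 156 CPM in the control (904 UMIs) and 155 CPM in the CKO library (1060 UMIs), a ratio of 0.993 (interval 0.908 to 1.09). *Wwtr1* fell from 961 CPM (5578 UMIs) to 718 CPM (4917 UMIs), a ratio of 0.746 (0.718 to 0.776). *Tead1* fell from 215 to 172 CPM, a ratio of 0.802 (0.740 to 0.869). *Wwtr1* was thus lower in CKO ECs of the brain, whereas it was higher in most CKO libraries of the retina in each compared label.

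*Lats2* was at 162 CPM in control and 161 CPM in CKO ECs, a ratio of 0.995 (0.912 to 1.09). *Amotl2* was at 91.5 and 88.7 CPM, a ratio of 0.969 (0.862 to 1.09). For both, as for *Yap1*, the interval covers an equal level. Among targets *Ccn1* rose from 48.3 CPM (280 UMIs) to 59.0 CPM (404 UMIs), a ratio of 1.22 (1.05 to 1.43), and *Ccn2* fell from 84.1 CPM (488 UMIs) to 73.8 CPM (506 UMIs), a ratio of 0.878 (0.774 to 0.996). *Ankrd1* had 1 UMI in control and 6 UMIs in CKO nuclei, for a ratio of 5.08 with an interval of 0.616 to 234.

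Past 1.5-fold lay 0 of the 7 members with at least 100 UMIs in ECs, beside 1893 of 9792 genes (19.3%) that were higher and 752 (7.68%) that were lower in the CKO library. With TMM-scaled library sizes 1499 genes (15.3%) were higher and 1007 (10.3%) lower past 1.5-fold, with 0 of the 7 members among them. The median log2 ratio of all these genes was 0.14 with CPM and 0.04 with TMM-scaled library sizes. With TMM the log2 ratio was -0.53 for *Wwtr1*, -0.42 for *Tead1*, 0.18 for *Ccn1* and -0.29 for *Ccn2*, so that none of these 4 changed its direction between the scalings. Among the EC nuclei with no UMI of a pericyte marker, 363 of 2475 in the control and 134 of 2944 in the CKO library at a median depth of 503 and 439 UMIs, *Ccn2* had 16 and 10 UMIs and a log2 ratio of 0.88, the opposite of its direction over all EC nuclei. Other members moved there too, on few UMIs, to -0.98 for *Yap1* (35 and 6 UMIs), 0.18 for *Lats2* (65 and 25), 1.56 for *Amotl2* (8 and 8) and 3.15 for *Ccn1* (6 and 18).

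The largest difference of a member in a brain label with at least 100 nuclei in each library and over 3 UMIs in each was that of *Ccn1* in glia. It went from 7.50 CPM (13 UMIs in 1227 nuclei) to 74.1 CPM (37 UMIs in 419 nuclei), a ratio of 9.88 (5.13 to 20.3). *Ccn2* in the same nuclei was at 191 and 206 CPM, a ratio of 1.08 (0.857 to 1.35), and its direction flipped with TMM-scaled library sizes, from a log2 ratio of 0.11 to -0.10. *Wwtr1* there was lower in the CKO library, at 345 and 258 CPM with a ratio of 0.749 (0.614 to 0.907), and *Lats2* higher, at 107 and 146 CPM with a ratio of 1.36 (1.02 to 1.80). The fibroblast sum was 4552 CPM in the control and 4694 CPM in the CKO library, and the astrocyte sum 2059 and 1863 CPM.

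In vascular smooth muscle cells, with 449 control and 103 CKO nuclei, *Ccn2* rose from 129 CPM (199 UMIs) to 232 CPM (60 UMIs), a ratio of 1.81 (1.33 to 2.42), and *Ccn1* from 82.1 to 120 CPM, with a ratio of 1.46 whose interval of 0.953 to 2.18 covers an equal level. The fibroblast sum in these nuclei went from 2147 to 4142 CPM while the smooth muscle sum went from 5194 to 4695 CPM, and the part of either in *Ccn2* was not tested. Pericytes had only 22 CKO nuclei, and all member ratios there had intervals that cover an equal level.

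Differences in the remaining brain labels were of both signs. In CP_6 *Ccn1* fell from 23.0 CPM (76 UMIs) to 11.7 CPM (16 UMIs), a ratio of 0.508 (0.277 to 0.880). In CP_8 *Wwtr1* fell from 176 to 99.2 CPM, a ratio of 0.564 (0.432 to 0.727), and *Tead1* rose from 563 to 762 CPM, a ratio of 1.35 (1.22 to 1.496). In astrocytes *Wwtr1* fell from 261 to 152 CPM, a ratio of 0.585 (0.451 to 0.750). *Wwtr1* was lower in the CKO library in ECs, glia, CP_8 and astrocytes, and at ratios of 1.05 in CP_6 and 0.974 in smooth muscle cells its interval covered an equal level.

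*Ccn2* was also present in some labels named Glut, in which no neuronal markers were read. In Glut_11 it fell from 36.3 CPM (82 UMIs) to 14.6 CPM (18 UMIs), a ratio of 0.403 (0.227 to 0.676), and in Glut_20 it rose from 39.9 to 118 CPM with 21 UMIs in each library, a ratio of 2.96 (1.54 to 5.70). *Tead1* had UMIs in every Glut and GABA label of the control. Its ratios there were of both signs, but each interval that excluded an equal level lay above it. *Tead1* was at 13.8 CPM (22 UMIs) in control and 51.4 CPM (9 UMIs) in CKO nuclei of Glut_5, a ratio of 3.73 (1.51 to 8.43). In GABA_9 it was at 34.1 and 59.8 CPM, a ratio of 1.75 (1.30 to 2.37). In Glut_17 it was at 142 CPM (167 UMIs) and 186 CPM (179 UMIs), a ratio of 1.32 (1.06 to 1.63). In Glut_11 it was at 13.3 and 7.30 CPM, where the ratio of 0.550 had an interval of 0.230 to 1.19 that covers an equal level. The intervals of the other ratios below 1 covered it too.

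**Figure D3:**
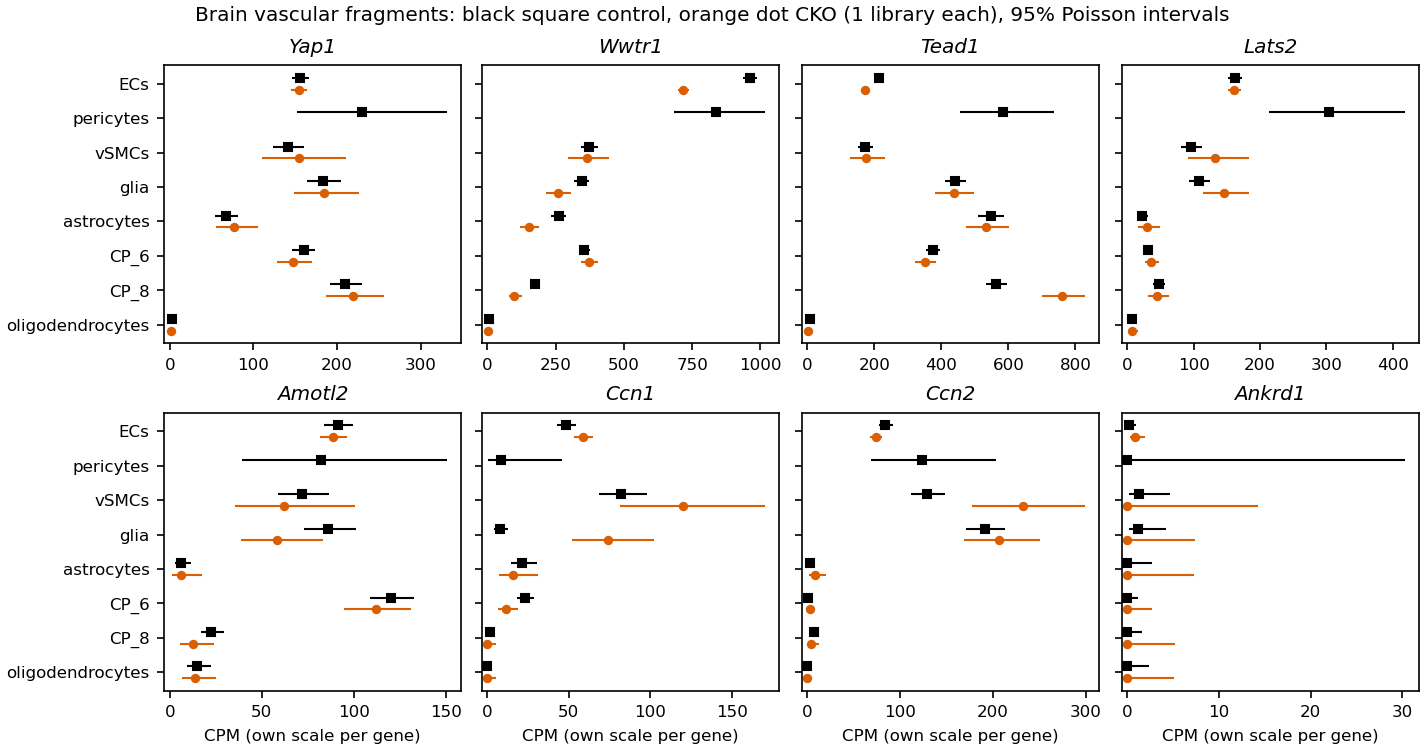
Level of each member (CPM, own horizontal scale per gene) in brain cell type labels of the control library (black squares) and the CKO library (orange dots; pericytes, with 22 CKO nuclei, only for the control), with 95% Poisson intervals. *Wwtr1* is highest in ECs, where it is lower in the CKO library, and *Ccn1* in glia is at 74.1 CPM in the CKO and 7.50 CPM in the control library.

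Patterns across cell types were compared over the 30 labels of both control libraries with at least 50 nuclei, among 11064 genes that reach 50 CPM in a label, by Pearson's r of log2 values of CPM plus 1. The points share their library and its depth within each tissue, and r is given as a description. *Yap1* was most like *Wwtr1* (r 0.926), *Rgs12* (0.916) and *Tram2* (0.912), and *Wwtr1* most like *Ccdc141* (0.929), *Nr2f2* (0.926) and *Yap1* (0.926). The pair of coactivator genes were thus among each other's nearest genes. *Tead1* had no neighbour as close, with *Ttc23* (0.820), *Denn2b* (0.801) and *Fgf2* (0.778) at the top.

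*Lats2* was most like *Hmg20b* (0.965), *Krcc1* (0.953) and *Wasf2* (0.944), and *Amotl2* most like *Limd1* (0.906), *Ilk* (0.906) and *Dnajc3* (0.905). *Ccn1* was most like *Gstm1* (0.954), *Crip1* (0.926) and *Ccdc80* (0.925), and *Ccn2* most like *Mgp* (0.894). No member other than the coactivator pair was among another member's nearest 3. *Ankrd1* did not reach 50 CPM in any label and was not compared.

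Positions are on the GRCm39 build. *Ccn1*, at chr3:145352720-145355738, and *Ccn2*, at chr10:24471333-24474900, are short genes of 3019 and 3568 bases, and *Tead1*, at chr7:112278522-112506014, spans 227493 bases. Each of the 2 CCN genes is overlapped by a lncRNA on the opposite strand. *Gm17501*, over 942 bases of *Ccn1*, was at 4.63 CPM in control Müller glia and at 1.99 to 6.84 CPM in the CKO libraries, and *Gm15270*, over 1680 bases of *Ccn2*, was at 19.9 CPM and 8.61 to 19.6 CPM, below the control in 10 of 10. The sources do not say how overlapping genes and strands were handled in counting, and its part in these levels was not tested.

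RefSeq promoter windows of the GRCm38.p6 build, from 250 bases before to 50 after a gene's start, were found for 6 of the 8 members, and had 8 windows in all, since *Wwtr1* and *Lats2* have 2 each. *Tead1* and *Ccn2* have no entry. The windows were searched on both strands for the TEAD motif GGAATG, the AP-1 motif TGANTCA and the CArG box of serum response elements. GGAATG was in 7 of the 8 windows and in 6 of 6 members, against 14.7% of all 32851 windows. The windows of *Wwtr1* overlap and share a single site, which is thus counted in both. AP-1 and CArG matches were in 0 of the 8, against 7.81% and 1.63% of all windows. A match is a description of the letters and not a measured binding site.

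The promoters of *Ccn1* and *Amotl2* are printed whole because these are the members with a window for which the control lay below every CKO library in Müller glia. Both are written from 5′ to 3′ on the gene's own strand, *Ccn1* on the minus strand at chr3:145649936-145650235 and *Amotl2* on the plus strand at chr9:102717554-102717853. Capitals mark the motif, which is in the reverse orientation (CATTCC) in both, starting 103 bases before the start of *Ccn1* and 65 before that of *Amotl2*.
Ccn1: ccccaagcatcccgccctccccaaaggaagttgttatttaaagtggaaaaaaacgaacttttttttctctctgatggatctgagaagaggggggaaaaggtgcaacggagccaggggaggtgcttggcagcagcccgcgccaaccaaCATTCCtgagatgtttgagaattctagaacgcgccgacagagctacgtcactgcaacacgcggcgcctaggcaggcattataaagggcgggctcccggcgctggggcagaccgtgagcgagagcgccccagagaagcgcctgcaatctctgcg
Amotl2: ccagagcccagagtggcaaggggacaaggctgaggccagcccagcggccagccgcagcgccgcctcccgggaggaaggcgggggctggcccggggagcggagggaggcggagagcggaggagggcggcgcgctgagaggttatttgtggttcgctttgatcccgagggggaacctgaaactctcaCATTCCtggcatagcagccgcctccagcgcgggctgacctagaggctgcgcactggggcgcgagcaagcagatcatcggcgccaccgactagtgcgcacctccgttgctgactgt

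For the other members with a match, the motif is shown with 20 bases on each side, to compare what surrounds it. *Yap1* (chr9:8004712-8004757), *Wwtr1* (chr3:57576021-57576066), *Lats2* (chr14:57746094-57746139) and both copies of *Ankrd1* (chr19:36120029-36120074 and chr19:36119942-36119987) are on the minus strand, and all carry GGAATG in the direction of the gene. In *Lats2* the motif lies just after the gene's start, and in the others before it.
Yap1: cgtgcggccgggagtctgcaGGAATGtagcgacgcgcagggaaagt
Wwtr1: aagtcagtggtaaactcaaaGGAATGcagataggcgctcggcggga
Lats2: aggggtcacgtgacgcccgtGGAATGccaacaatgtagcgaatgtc
Ankrd1 copy 1: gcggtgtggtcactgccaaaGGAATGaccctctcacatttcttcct
Ankrd1 copy 2: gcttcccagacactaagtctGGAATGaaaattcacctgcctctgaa

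**Figure D4:**
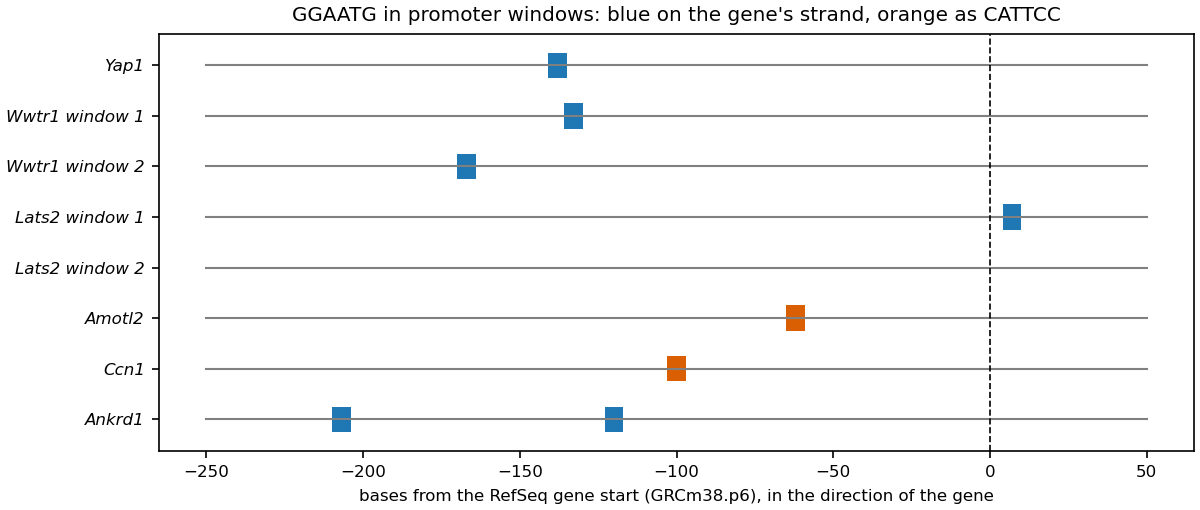
Position of GGAATG in the 8 promoter windows of 6 members, in bases from the RefSeq gene start (GRCm38.p6) in the direction of the gene, blue where GGAATG is on the gene's strand and orange where it reads CATTCC. 7 of 8 windows hold a match, and *Ankrd1* holds 2.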

How the data were processed

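The counts used are the integer UMI matrices deposited by the authors, produced with PIPseeker, CellBender and SOLO, after which mixed nuclei, and clusters in CKO replicates 4 and 5, were removed by hand. Cell type, batch and kit are the authors' labels. The members, gene lists and marker lists were chosen with earlier results of these data known. UMIs were summed per label and library and scaled to CPM with Python 3.11.15, numpy 2.4.6, pandas 2.3.3 and scipy 1.17.1, using libraries with at least 100 nuclei of a label in the retina and no pseudocount. Intervals are exact Poisson, exact binomial for shares and exact conditional binomial for ratios. Müller glia sums were fitted with edgeR 4.0.16 in R 4.3.3 (filterByExpr, TMM, quasi-likelihood test, kit as covariate, Benjamini-Hochberg over all genes, threshold 0.05) or DESeq2 1.42.0, tested on simulated data. With 1 control, its variation is taken from the CKO group. Figures used matplotlib 3.10.9.

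Named genes are the 8 members, *Tgfbr1* with library checks, and the called genes or else the 2 with most UMIs per list. The leading gene of each marker list and per member up to 3 genes of highest r are also named. *Fjx1*, *Ptpn14*, *Nuak2*, *Fos*, *Nr4a1*, *Fosl2* and *Jund* were named after their values were seen. The lists were Hippo kinases, coactivators and TEADs, YAP and TAZ targets, CCN family, immediate early, SRF and TGF-beta targets, and markers of retinal and brain cell types. Alternatives changed the scaling, weighting, depth, minimum of nuclei, filter, covariate, test tool, libraries and pericyte markers. Protein features were not made, since no protein sequences were given.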

Additional observations from a re-analysis of the deposited data

Results flagged for a closer look

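Of 60 groups of CKO libraries, 7 had a library far from the others, where chance flags about 1 in 20 groups of continuous values. That rate does not hold for 5 of them, where 1 to 3 UMIs stand against 0 elsewhere: *Ankrd1* in GABAergic amacrine cells of CKO replicate 5 (0.218 CPM), in glycinergic amacrine cells of replicate 9 (0.261 CPM), in Müller glia of replicate 5 (0.322 CPM) and in ganglion cells of replicate 5 (0.319 CPM), and *Ccn1* in glycinergic amacrine cells of replicate 2 (1.97 CPM), each with every other CKO library at 0. The others are *Lats2* in cones of CKO replicate 7, at 81.6 CPM beside 72.7 CPM in the next highest, and *Amotl2* in rod bipolar cells of replicate 11, at 9.00 CPM (12 UMIs) beside 5.87 CPM.

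*Yap1* lay on different sides of the control in 2 cell types. Among libraries with at least 100 nuclei, each CKO library lay above the control in glycinergic amacrine cells and each of 7 below it in ganglion cells, where the ratio of means was 0.643. CKO replicate 8, with 88 ganglion nuclei, was above the control at 7.48 CPM. The difference between the cell types was not tested, and both controls rest on 14 UMIs. No share of all genes in these positions is given for either cell type, so nothing is read from them. The intervals of all 7 compared ganglion cell libraries cover the control, and in glycinergic amacrine cells CKO replicates 1 and 3, at 5.02 and 4.63 CPM, lie within the control's interval of 2.16 to 6.64 CPM.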

How the results depend on the processing

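No paired analysis was possible because each tissue has 1 control library and no pairing of animals is given. In Müller glia the log2 ratio of means ranged over 19 alternatives from 3.08 to 3.29 for *Ccn1*, 0.88 to 1.82 for *Ccn2*, 0.58 to 0.91 for *Amotl2*, 0.34 to 0.55 for *Wwtr1* and 0.06 to 0.69 for *Tead1*. *Yap1* (-0.34 to 0.22) and, over 20 alternatives, *Lats2* (-0.18 to 0.62) changed sign. *Tead1* moved from 0.25 to 0.69 with no minimum on nuclei, through 1 UMI in the 2 nuclei of CKO replicate 4, *Ccn2* from 1.67 to 0.88 in the 3 CKO libraries with high *Xist*, and *Lats2* from 0.08 to 0.62 with *Gm49361* added.

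Leaving out 1 CKO library gave 3.20 to 3.25 for *Ccn1*, 1.61 to 1.78 for *Ccn2*, 0.67 to 0.78 for *Amotl2*, 0.44 to 0.55 for *Wwtr1*, 0.22 to 0.30 for *Tead1*, 0.06 to 0.22 for *Yap1* and 0.04 to 0.14 for *Lats2*. The members with the control below every CKO library, 3 of 7, became 5 in batch 1, 0 with no minimum on nuclei, and 3 to 5 without 1 library, 5 without CKO replicate 7. All genes in that position rose from 1192 to 3361 in batch 1 and those in the opposite one from 675 to 2409. The genes called by edgeR, 1 of 12992, became 17 in batch 1, 4 with no filter, 2 with no minimum, 1 to 6 without 1 library (6 without CKO replicate 7) and 107 in DESeq2. No alternative called a gene of the lists.

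In brain ECs, TMM moved *Wwtr1* from -0.42 to -0.53. Weighting nuclei equally gave 0.22 for *Yap1* (-0.01), -0.54 for *Wwtr1* and -0.45 for *Tead1* (-0.32). In nuclei without pericyte marker UMIs, the values were -0.98 for *Yap1*, -0.24 for *Wwtr1*, 0.18 for *Lats2* (-0.01), 1.56 for *Amotl2* (-0.04), 3.15 for *Ccn1* (0.29; 6 and 18 UMIs) and 0.88 for *Ccn2*, reversed from -0.19 (16 and 10 UMIs), with no value for *Ankrd1*, which had no UMI left. Except where stated, the cause was not tested. Chosen after seeing the data were the added *Gm49361*, the brain glia alternatives and the labels without a minimum. CKO replicate 5, a library curated by hand, was left out only as 1 of the 10 CKO libraries left out in turn. Limits remain. The retina has 1 control library and the brain 1 library of each genotype, so that variation among control animals is unknown. Batch, kit, sex-linked expression and genotype overlap in part, and the set of counted genes differs between batches. Depth limits *Ankrd1* everywhere and *Ccn1* and *Ccn2* in the control.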
